A study of Mus musculus with 18 samples.

Results

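Entry into mitosis is controlled in mammalian cells by the kinase CDK1, and the 10 genes described here encode that kinase together with the proteins that switch it on and off: *Cdk1* itself, its cyclins *Ccna2*, *Ccnb1* and *Ccnb2*, the activating phosphatases *Cdc25a*, *Cdc25b* and *Cdc25c*, the mitotic kinase *Plk1*, and the inhibitory kinases *Wee1* and *Pkmyt1*. They were chosen by name as the core of the switch, and each matched 1 of the 55450 genes in the count table. All 10 passed the minimum count used below. They were measured in ED1SQ4, a murine lung cancer cell line derived from a tumor of a cyclin E-overexpressing transgenic mouse, so that a single line represents every condition and all groups carry that background. Cells were exposed for 72 hours to vehicle or to 0.5 µM CYC065, an inhibitor of the cyclin-dependent kinases CDK2 and CDK9, and total RNA was then sequenced after ribosomal RNA depletion from unsorted cells and from cells sorted by their content of DNA, stained with Vybrant DyeCycle Green, into diploid (2N) and polyploid (4N) populations. This gave 6 conditions: vehicle unsorted, vehicle 2N, vehicle 4N, CYC065 unsorted, CYC065 2N, and CYC065 4N.

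CDK1 is active only when bound to cyclin A or cyclin B, and cyclin B accumulates from S phase into G2 and is destroyed at anaphase. While the cell prepares for division, WEE1 in the nucleus and PKMYT1 at internal membranes hold the complex inactive by phosphorylating it close to its ATP-binding site. CDC25 phosphatases remove those phosphates, PLK1 promotes CDC25 activity and the degradation of WEE1, and active CDK1 reinforces both arms, which makes mitotic entry abrupt. Transcripts of most of these genes are themselves periodic and peak in G2 and M phase, whereas *Cdc25a* is known as a target of E2F around the entry into S phase. A gate at 4N DNA content holds dividing diploid cells in G2 or M phase as well as polyploid cells in G1, and these cannot be told apart by DNA content.

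Each condition was deposited as 3 count columns, and their library names mark them as 3 parts of 1 library. Over genes with whole counts the parts differed by no more than sampling noise: chi-square divided by its degrees of freedom was 0.992 to 1.02 for the parts of a library and 41.2 to 1123 for pairs of conditions. It was 4.94 to 8.85 for the parts over genes with fractional counts, and the column totals within a condition differed by at most 0.0681%. The columns were therefore summed and counted as 1 sample, n = 1 for each condition, with no replicate check of any difference. The summed libraries held 54750203 to 62795507 counts, with 0.380% to 1.69% of counts from the mitochondrial genome. Intervals given after values are 95% intervals for counting error alone, exact for the ratio of a gene between 2 libraries and from a normal approximation where 4 counts enter, and do not cover variation between cultures. The cell type markers did not bear out a lung epithelial label: the 6 epithelial markers summed to 0.436 to 0.801 counts per 1000000 scaled counts (CPM) in vehicle and 0.854 to 1.39 CPM in CYC065, the 4 lung lineage markers to 0 in the 3 vehicle libraries and at most 0.0739 CPM with CYC065, and *Nkx2-1* and *Scgb1a1* were at 0 in every library. The 4 fibroblast markers summed to 5987 to 8765 CPM in vehicle and 9103 to 14754 CPM in CYC065, and the 4 leukocyte markers, nearly all *Cd68*, to 3.45 to 4.06 CPM and 10.9 to 23.8 CPM. Both lists were thus higher in each CYC065 library than in each vehicle library, and their part in the differences described here was not tested.

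The start of a gene is shown for 4 members because their transcripts span the range of responses, from *Plk1* and *Cdk1* to *Ccnb2*. The sequences run 5′ to 3′ along the gene from 250 bases before to 50 bases after the start in the RefSeq annotation of GRCm38.p6. They lie at chr10:69352863-69353162 (minus strand) for *Cdk1*, chr13:100786437-100786736 (minus strand) for *Ccnb1*, chr9:70421505-70421804 (minus strand) for *Ccnb2* and chr7:122159185-122159484 (plus strand) for *Plk1*. Capitals mark CCAAT, the box read by the NF-Y factor, and TTTGAA, the cell cycle genes homology region known from many G2/M promoters, on either strand.
Cdk1: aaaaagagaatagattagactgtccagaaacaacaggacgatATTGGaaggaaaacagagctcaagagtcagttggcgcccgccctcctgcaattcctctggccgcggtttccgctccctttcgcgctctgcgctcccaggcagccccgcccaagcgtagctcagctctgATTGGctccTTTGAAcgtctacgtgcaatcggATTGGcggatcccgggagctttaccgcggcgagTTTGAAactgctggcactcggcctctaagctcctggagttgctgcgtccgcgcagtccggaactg
Ccnb1: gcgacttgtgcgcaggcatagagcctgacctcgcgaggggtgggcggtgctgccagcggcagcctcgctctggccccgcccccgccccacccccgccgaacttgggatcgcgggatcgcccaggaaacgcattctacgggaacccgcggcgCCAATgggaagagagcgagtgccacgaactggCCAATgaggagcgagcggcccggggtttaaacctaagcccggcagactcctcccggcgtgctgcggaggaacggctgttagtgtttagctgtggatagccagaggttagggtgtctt
Ccnb2: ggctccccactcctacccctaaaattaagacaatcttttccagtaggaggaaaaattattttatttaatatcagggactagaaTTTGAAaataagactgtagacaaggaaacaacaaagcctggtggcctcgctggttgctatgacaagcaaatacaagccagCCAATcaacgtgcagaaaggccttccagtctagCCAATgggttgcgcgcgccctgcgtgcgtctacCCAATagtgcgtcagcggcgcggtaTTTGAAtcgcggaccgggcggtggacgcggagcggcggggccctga
Plk1: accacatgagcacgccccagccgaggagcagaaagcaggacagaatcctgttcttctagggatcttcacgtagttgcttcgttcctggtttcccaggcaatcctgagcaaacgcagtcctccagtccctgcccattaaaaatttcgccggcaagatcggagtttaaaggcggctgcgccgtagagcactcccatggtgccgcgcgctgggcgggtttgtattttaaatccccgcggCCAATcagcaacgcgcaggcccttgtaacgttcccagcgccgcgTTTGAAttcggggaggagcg

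The sequence table held starts of 6 members, which were *Cdk1*, *Ccnb1*, *Ccnb2*, *Cdc25a*, *Cdc25b* and *Plk1*, and those of *Ccna2*, *Cdc25c*, *Wee1* and *Pkmyt1* were not analyzed here. CCAAT was found on at least 1 strand in all 6, compared with 37.4% of the 32851 starts in the table, and at least 2 copies stood in 4 of the 6, compared with 11.7%. TTTGAA was found in *Cdk1*, *Ccnb2* and *Plk1* and in 17.9% of all starts, and the related TTCGAA in *Cdc25b* alone among the 6 and in 1.56% of all starts. Within 50 bases of the start, TTTGAA or TTCGAA stood in these same 4 members and in 5.31% of all starts. In *Cdk1* the nearer TTTGAA began at -15, in *Ccnb2* at 5, in *Plk1* at 31, and the TTCGAA of *Cdc25b* began at 8, counted from the first transcribed base as 1. TTTNNCGC, a form of the E2F site, was found in *Cdk1*, at -131 and -29, and in *Cdc25a*, at -67, against 5.17% of all starts. No copy of TTTNNCGC overlapped a copy of the other motifs in these 6 windows. *Ccnb2*, which differed most from the others in expression, carried 3 CCAAT boxes and 2 copies of TTTGAA, as did *Cdk1*. Starts of the other mitotic genes and the S phase genes described below gave a closer comparison. CCAAT stood in 83.3% of the 18 mitotic and 71.4% of the 14 S phase starts, and at least 2 copies in 55.6% and 42.9%. TTTGAA or TTCGAA within 50 bases of the start was found in 77.8% and 7.14%, and TTTNNCGC in 0% and 50%. These matches describe letters only.

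Most of the CDK1 genes had lower levels after CYC065, by a wider margin in 2N and unsorted cells than in 4N cells, and higher levels in the 4N than in the 2N population under both treatments. The 10 transcripts together made up 969 CPM in vehicle unsorted, 848 in vehicle 2N and 1266 in vehicle 4N cells, and 347, 345 and 707 CPM in the corresponding CYC065-treated cells. The summed level in CYC065-treated 4N cells was therefore below that of every vehicle library, although above the other CYC065-treated populations. 8 members were lower with CYC065 in all 3 populations, and *Ccnb2* and *Wee1* were not. Taken singly, 53.4%, 51.7% and 53.8% of the genes tested were lower in 2N, 4N and unsorted cells. The share of genes lower in all 3 together is not given here. For 6 members, *Cdk1*, *Ccna2*, *Cdc25a*, *Cdc25b*, *Plk1* and *Pkmyt1*, every CYC065-treated library lay below every vehicle library, as it did for 32.1% of the 14754 genes with at least 30 counts in a library.

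**Figure D1:**
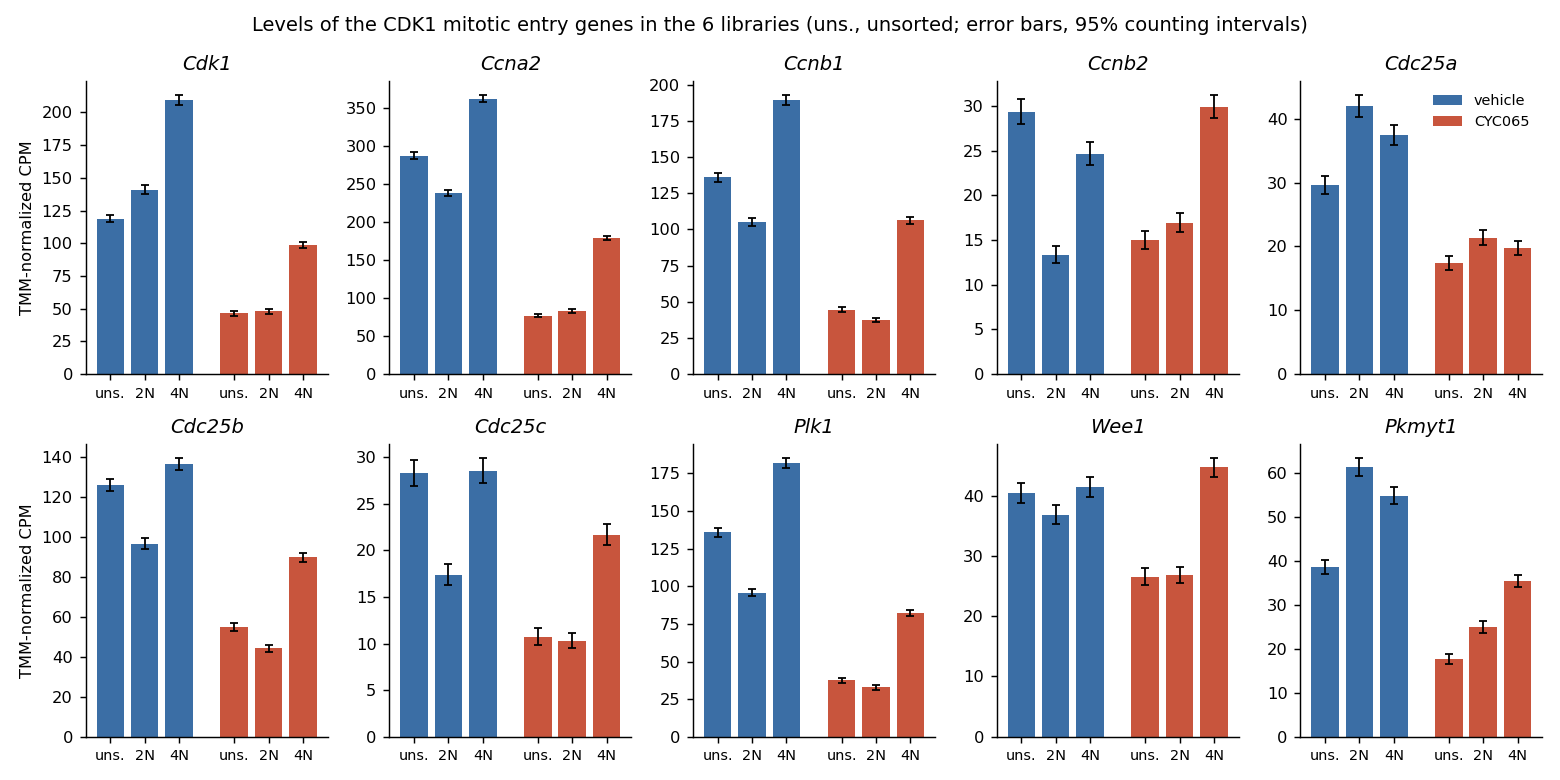
TMM-normalized CPM (vertical axes, each from 0) of the 10 genes in the 6 libraries, with vehicle in blue and CYC065 in red; bars are single libraries and error bars are 95% counting intervals. *Ccnb2* and *Wee1* have their highest bar in CYC065 4N, at 29.9 and 44.6 CPM, whereas *Cdk1*, *Ccna2*, *Ccnb1*, *Cdc25b*, *Cdc25c* and *Plk1* have theirs in vehicle 4N.

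*Cdk1* (chr10:69335146-69352938, minus strand, mm10) was at 119, 141 and 210 CPM in vehicle unsorted, 2N and 4N cells and at 46.4, 47.9 and 98.5 CPM in their CYC065-treated counterparts. All 3 CYC065-treated libraries were below all 3 vehicle libraries, and neighbors in this order differed beyond counting error except CYC065 2N and CYC065 unsorted. The log2 ratio of CYC065 to vehicle was -1.56 (-1.62 to -1.49) in 2N, -1.09 (-1.13 to -1.05) in 4N and -1.36 (-1.42 to -1.29) in unsorted cells, that is 2.94-fold, 2.13-fold and 2.56-fold lower. A gene was called past the fold when its log2 ratio lay beyond 1 in either direction and at least 1 library compared held 30 counts. *Cdk1* was called in each of the 3 comparisons with vehicle. In bulk samples like these, fewer cells expressing a gene and less RNA per cell cannot be told apart.

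*Ccna2* (chr3:36564865-36572150, minus strand) encodes cyclin A2, which pairs with CDK2 in S phase and with CDK1 in G2. It was the most abundant member per length of its principal transcript in every library, at 96.8, 80.3 and 122 CPM per kilobase in vehicle unsorted, 2N and 4N and 25.9, 27.9 and 60.3 in the CYC065-treated counterparts. This rank held when all annotated exons were used as the length, while the order of the other members changed with the length used. Unscaled by length, its levels were 287, 238, 362, 76.8, 82.7 and 179 CPM in the order vehicle unsorted, 2N and 4N, then CYC065 unsorted, 2N and 4N. The log2 ratio of CYC065 to vehicle was -1.53 (-1.57 to -1.48) in 2N, -1.02 (-1.05 to -0.98) in 4N and -1.90 (-1.95 to -1.85) in unsorted cells. The CYC065 values again lay below all vehicle values, and the call in 4N cells rested on a value whose interval reached across the fold; it was lost under 6 of the alternative settings, with values of -0.99 to -0.87.

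*Ccnb1* and *Ccnb2* encode B-type cyclins, of which cyclin B1 is the main partner of CDK1 at mitotic entry and cyclin B2 is concentrated at the Golgi apparatus. *Ccnb1* (chr13:100778650-100786570, minus strand) was at 136, 105 and 189 CPM in vehicle unsorted, 2N and 4N and at 44.4, 37.4 and 106 CPM in CYC065 unsorted, 2N and 4N cells. Its log2 ratio to vehicle was -1.49 (-1.56 to -1.42) in 2N, -0.83 (-0.87 to -0.79) in 4N and -1.61 (-1.68 to -1.55) in unsorted cells, with calls in 2N and unsorted cells. The CYC065 4N and vehicle 2N levels of *Ccnb1* did not differ beyond counting error, so that the highest treated library met the lowest vehicle library. Of the 50-base stretches of its exons, 23.4% also occur in other annotated genes, among them the pseudogene *Ccnb1-ps*, and its counts were partly fractional, so its values depend on how shared reads were assigned.

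*Ccnb2* (chr9:70407692-70421547, minus strand) followed another pattern. It was at 29.4, 13.3 and 24.7 CPM in vehicle unsorted, 2N and 4N cells and at 15.0, 17.0 and 29.9 CPM with CYC065. The libraries of both treatments were intermixed, with the lowest value in vehicle 2N and the highest shared by CYC065 4N and vehicle unsorted, which did not differ beyond counting error. The log2 ratio of CYC065 to vehicle was 0.35 (0.21 to 0.49) in 2N and 0.28 (0.18 to 0.38) in 4N but -0.97 (-1.09 to -0.85) in unsorted cells, and none of the 3 was called. Sorted and unsorted cells thus differed in direction for this cyclin. Within libraries, the count of *Ccnb2* per count of *Ccnb1* was 0.216 in vehicle unsorted, 0.127 in vehicle 2N and 0.130 in vehicle 4N, and it was 0.338, 0.454 and 0.281 in the CYC065-treated counterparts. All 3 CYC065-treated ratios lay above all 3 vehicle ratios, and this within-library ratio does not depend on the scaling between libraries. Only 5.2%, 15.9% and 5.16% of genes tested had a lower log2 ratio to vehicle than *Ccnb1* in 2N, 4N and unsorted cells. Most genes thus also gained on *Ccnb1* in each population.

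The Cdc25 phosphatases remove the inhibitory phosphates, CDC25A from S phase onward and CDC25B and CDC25C mainly at the G2/M transition. *Cdc25b* (chr2:131186949-131198497, plus strand) was at 126, 96.5 and 136 CPM in vehicle unsorted, 2N and 4N and at 54.9, 44.2 and 89.7 CPM with CYC065. *Cdc25c* was at 28.3, 17.4 and 28.5 CPM in vehicle and at 10.7, 10.3 and 21.7 CPM with CYC065 in the same order. *Cdc25a* (chr9:109875579-109893895, plus strand) was at 29.6, 42.0 and 37.4 CPM in vehicle and at 17.3, 21.3 and 19.7 CPM with CYC065. *Cdc25b* and *Cdc25a* had no treated library at or above a vehicle library, whereas CYC065 4N exceeded vehicle 2N for *Cdc25c*. *Cdc25b* had log2 ratios to vehicle of -1.13 (-1.20 to -1.06) in 2N, -0.61 (-0.65 to -0.56) in 4N and -1.19 (-1.26 to -1.13) in unsorted cells. *Cdc25c* had -0.76 (-0.91 to -0.61), -0.40 (-0.50 to -0.29) and -1.40 (-1.54 to -1.26), and only its unsorted value was called. *Cdc25a* was nearly even across the populations, at -0.98 (-1.08 to -0.88), -0.92 (-1.02 to -0.82) and -0.77 (-0.89 to -0.66), and was called in none of them. Reads of *Cdc25b* and *Cdc25c* could also come from overlapping genes on the opposite strand (*Spef1* and *Gm3550*) if counting did not use strand.

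*Plk1* (chr7:122159439-122169873, plus strand), which encodes the polo-like kinase that acts on CDC25C and WEE1, was at 136, 95.8 and 182 CPM in vehicle unsorted, 2N and 4N and at 37.6, 32.8 and 82.4 CPM in CYC065 unsorted, 2N and 4N cells. As for *Cdk1*, every treated library lay below every vehicle library. Its log2 ratio to vehicle was -1.55 (-1.62 to -1.47) in 2N, -1.14 (-1.19 to -1.10) in 4N and -1.85 (-1.92 to -1.78) in unsorted cells, or 2.92-fold, 2.21-fold and 3.61-fold lower, and it was called in all 3. A pseudogene, *Plk-ps1*, shares 6.56% of its 50-base stretches, and *Gm44985* overlaps it on the opposite strand, as *Exosc9* does *Ccna2*.

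The inhibitory kinases differed from each other. *Wee1* (chr7:110122046-110143286, plus strand) was at 40.4, 36.8 and 41.4 CPM in vehicle unsorted, 2N and 4N and at 26.5, 26.8 and 44.6 CPM in CYC065 unsorted, 2N and 4N cells. *Pkmyt1* (chr17:23726336-23736735, plus strand) was at 38.6, 61.5 and 54.9 CPM in vehicle and at 17.7, 25.0 and 35.5 CPM with CYC065. *Wee1* was therefore highest in treated 4N cells, whereas every treated library was below every vehicle library for *Pkmyt1*. The log2 ratio of *Wee1* to vehicle was -0.46 (-0.55 to -0.36) in 2N, 0.11 (0.03 to 0.19) in 4N and -0.61 (-0.70 to -0.51) in unsorted cells, and none was called. *Pkmyt1* had -1.30 (-1.39 to -1.21), -0.63 (-0.71 to -0.55) and -1.12 (-1.23 to -1.01), with calls in 2N and unsorted cells. *Wee1* counts per *Pkmyt1* count were 1.05, 0.598 and 0.754 in vehicle unsorted, 2N and 4N and 1.50, 1.07 and 1.26 with CYC065. Within each population the ratio was higher with CYC065. Only 7.67%, 22.1% and 11.4% of genes tested had a lower log2 ratio to vehicle than *Pkmyt1* in 2N, 4N and unsorted cells. Most genes thus also gained on *Pkmyt1*. *1600010M07Rik* and *Paqr4* overlap *Wee1* and *Pkmyt1* on the opposite strand.

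Counted together, 6 of the 10 members were called lower with CYC065 in 2N cells, where 13.3% of the 14083 genes tested were called lower. In 4N cells 3 members were called lower, *Cdk1*, *Ccna2* and *Plk1*, against 11.4% of 14177 genes, and in unsorted cells 7 were called lower against 13.9% of 14076 genes. No member was called higher in any of the 3, against 14.9%, 14.1% and 11.7% of genes. The median log2 ratio of the 10 members was -1.21 in 2N, -0.73 in 4N and -1.28 in unsorted cells, whereas the median of all genes tested was -0.07, -0.03 and -0.07. Scaling by library size alone raised every log2 ratio by 0.14 in 2N and in 4N cells, under which *Cdc25b* in 2N and *Cdk1* and *Ccna2* in 4N cells were no longer called and 1 member was called in 4N cells.

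**Figure D2:**
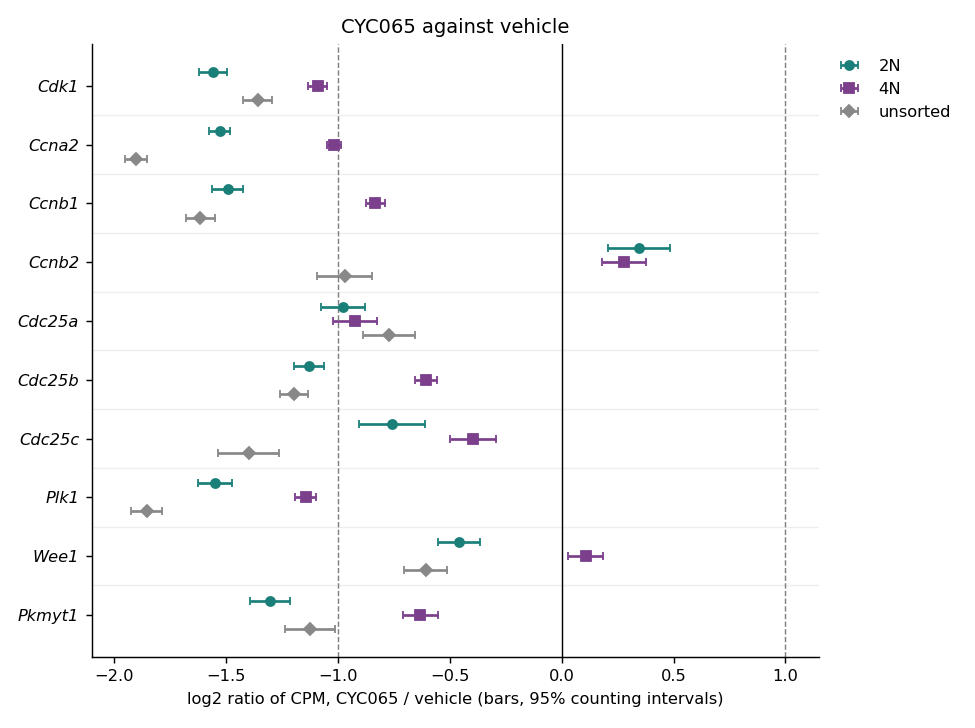
Log2 ratio of CPM in CYC065-treated over vehicle-treated cells (horizontal axis) for the 10 genes in 2N (circles), 4N (squares) and unsorted cells (diamonds); bars are 95% counting intervals and dashed lines mark the fold threshold of 1. *Cdk1* and *Plk1* lie beyond -1 in all 3 populations, and the sorted values of *Ccnb2*, 0.35 and 0.28, lie to the right of 0.

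Relative to *Cdk1* within the same library, the sorted cells held members whose ratio did not differ beyond counting error and members that were relatively more abundant with CYC065. In 2N cells the count ratio to *Cdk1* of *Plk1* differed by 0.01 (-0.09 to 0.11) on the log2 scale between vehicle and CYC065, that of *Ccna2* by 0.03 (-0.05 to 0.11) and that of *Ccnb1* by 0.07 (-0.03 to 0.16), intervals that hold 0. The other 6 ratios in 2N cells had intervals above 0. *Cdk1* was itself among the most lowered genes. Only 4.5%, 9.63% and 7.67% of genes tested had a lower log2 ratio than *Cdk1* in 2N, 4N and unsorted cells. Most genes tested were thus also more abundant relative to *Cdk1* with CYC065. *Ccnb2* differed by 1.90 (1.75 to 2.06) in 2N and 1.37 (1.26 to 1.47) in 4N cells. *Wee1* differed by 1.10 (0.99 to 1.21) in 2N and 1.20 (1.11 to 1.29) in 4N cells. The count of this inhibitory kinase per *Cdk1* count was thus 2.14 and 2.29 times that in vehicle. By its own log2 ratio to vehicle, *Wee1* stood above 31.7% of genes tested in 2N and 57.0% in 4N cells. A gain of this size relative to *Cdk1* was therefore not particular to *Wee1*. *Pkmyt1* differed by 0.26 (0.15 to 0.36) and 0.46 (0.37 to 0.55). In unsorted cells *Wee1* differed by 0.75 (0.64 to 0.87) and *Ccnb2* by 0.39 (0.25 to 0.53), while *Ccna2*, *Ccnb1* and *Plk1* had lower ratios to *Cdk1*, at -0.54, -0.26 and -0.50. Counts of *Cdc25b* per count of *Wee1*, the transcripts of an activating and an inhibiting enzyme, were 3.11, 2.62 and 3.29 in vehicle unsorted, 2N and 4N and 2.07, 1.65 and 2.01 with CYC065. The highest of the treated ratios lay below the lowest of the vehicle ratios. In 2N, 4N and unsorted cells, 31.7%, 57.0% and 25.6% of genes tested had a lower log2 ratio to vehicle than *Wee1*. Those genes also fell relative to *Wee1* within that population. Ratios of other pairs of an activating and an inhibiting enzyme were not computed. Relative to *Cdk1*, *Cdc25b* differed by 0.43 in 2N cells, more than *Pkmyt1* did. In 4N cells it differed by 0.48 (0.42 to 0.55), an interval that overlapped that of *Pkmyt1*. In unsorted cells *Cdc25b* differed by 0.16 and *Pkmyt1* by 0.23. The lower ratio to *Wee1* in sorted cells was therefore not shared by *Pkmyt1*.

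**Figure D3:**
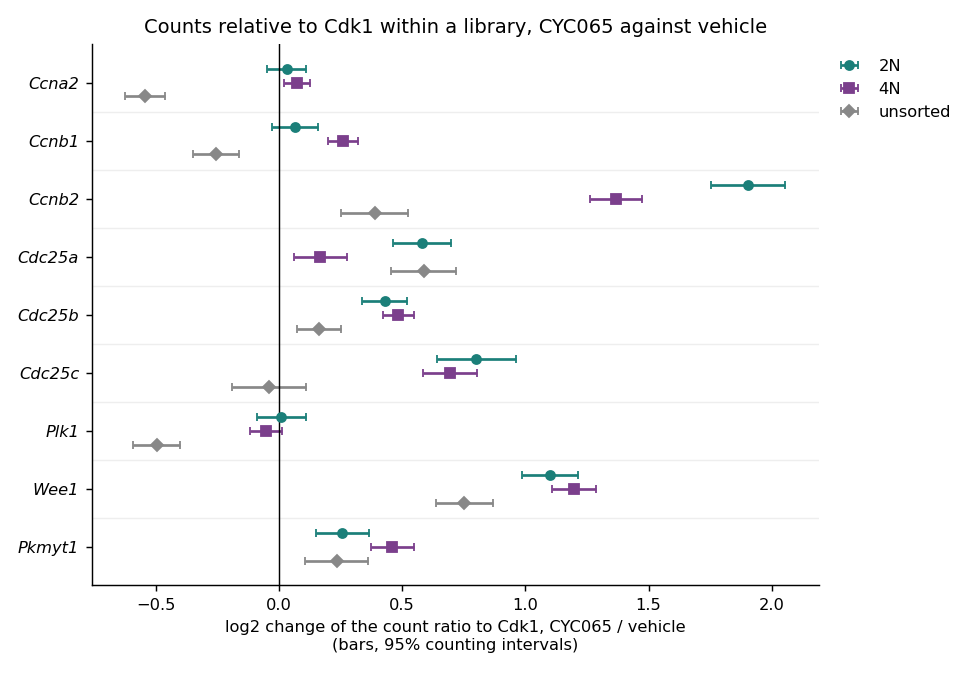
Log2 change, CYC065 over vehicle, of each gene's count ratio to *Cdk1* within a library (horizontal axis) in 2N, 4N and unsorted cells, with 95% counting intervals. *Ccnb2* and *Wee1* lie farthest to the right in sorted cells, at 1.90 and 1.10 in 2N cells, and *Plk1* lies at 0.01 in 2N and -0.05 in 4N cells.

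**Figure D4:**
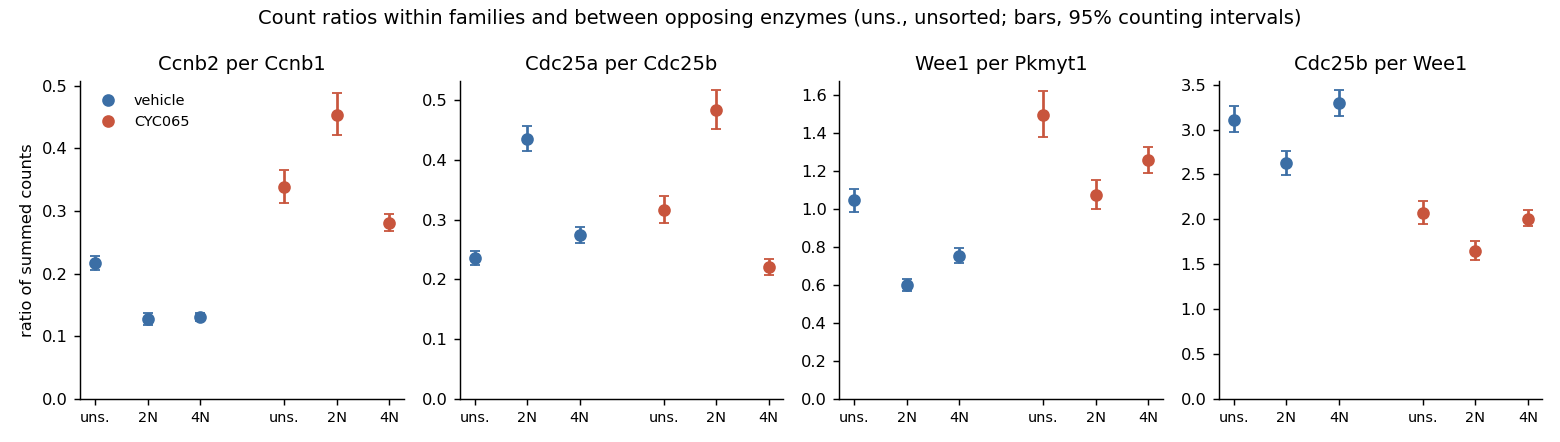
Ratios of summed counts (vertical axes, from 0) within each of the 6 libraries for 4 pairs of members, with vehicle in blue, CYC065 in red and 95% counting intervals as bars. *Ccnb2* per *Ccnb1* is highest in CYC065 2N, at 0.454, and *Cdc25b* per *Wee1* does not exceed 2.07 in the CYC065-treated libraries.

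The second contrast was between ploidy classes. In vehicle-treated cells the 4N population was higher than the 2N population in 8 of the 10 members, as it was in 51.8% of the genes tested, yet no member was called past the fold, while 1% of the 13358 genes tested were called higher. The values were largest for *Plk1*, with a log2 ratio of 4N to 2N of 0.93 (0.88 to 0.97), *Ccnb2* with 0.89 (0.76 to 1.02) and *Ccnb1* with 0.85 (0.80 to 0.89). *Cdc25c* had 0.71 (0.60 to 0.83), *Ccna2* 0.60 (0.57 to 0.63), *Cdk1* 0.57 (0.53 to 0.61), *Cdc25b* 0.50 (0.45 to 0.55) and *Wee1* 0.17 (0.09 to 0.26). *Cdc25a* and *Pkmyt1* were lower in 4N cells, at -0.17 (-0.25 to -0.08) and -0.16 (-0.23 to -0.09). The mitotic kinase *Plk1* and the B-type cyclins showed the widest steps, and the phosphatase *Cdc25a* and the inhibitory kinase *Pkmyt1* showed steps in the other direction. Whether the steps follow cell cycle phase was not tested.

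In CYC065-treated cells 9 of the 10 members were higher in 4N than in 2N cells, as were 53.7% of the genes tested. 6 members were called higher in 4N than in 2N cells, where 1.58% of the 14173 genes tested were called higher: *Ccnb1* at 1.51 (1.44 to 1.58), *Plk1* at 1.33 (1.25 to 1.41), *Ccna2* at 1.11 (1.06 to 1.16), *Cdc25c* at 1.07 (0.94 to 1.21), *Cdk1* at 1.04 (0.97 to 1.10) and *Cdc25b* at 1.02 (0.96 to 1.09). Only the first 3 of these had an interval wholly beyond the fold. *Ccnb2* had 0.82 (0.71 to 0.93), *Wee1* 0.74 (0.65 to 0.83) and *Pkmyt1* 0.51 (0.41 to 0.60). *Cdc25a* was lower in 4N cells, with -0.11 and an interval that reached almost to 0. The median of the 10 members was 1.03, compared with 0.59 in vehicle-treated cells and with 0.02 and 0.01 for all genes tested. When a biological coefficient of variation of 0.2 was assumed for the libraries, edgeR called none of the 6, with Benjamini-Hochberg adjusted p values of 0.0989 for *Ccnb1* and 0.211 for *Plk1*.

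The difference between both steps, the log2 ratio of 4N to 2N with CYC065 minus that with vehicle, was largest for *Pkmyt1* at 0.67 (0.55 to 0.79) and *Ccnb1* at 0.66 (0.58 to 0.74). It was 0.57 (0.44 to 0.69) for *Wee1*, 0.52 (0.44 to 0.61) for *Cdc25b*, 0.51 (0.45 to 0.57) for *Ccna2*, 0.47 (0.39 to 0.54) for *Cdk1*, 0.40 (0.32 to 0.49) for *Plk1* and 0.36 (0.18 to 0.54) for *Cdc25c*. The intervals of *Ccnb2*, at -0.07 (-0.24 to 0.10), and *Cdc25a*, at 0.05 (-0.09 to 0.19), held 0. The difference was above 0 for 9 of the 10 members and for 52.6% of all genes tested. No member reached the fold in this difference, where 3.61% of the 14474 genes tested were past it upward, and 8 of 10 members had an interval above 0, against 27.4% of those genes. The comparisons of treatment and of ploidy share the same 4 sorted libraries, so they are not independent of each other.

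**Figure D5:**
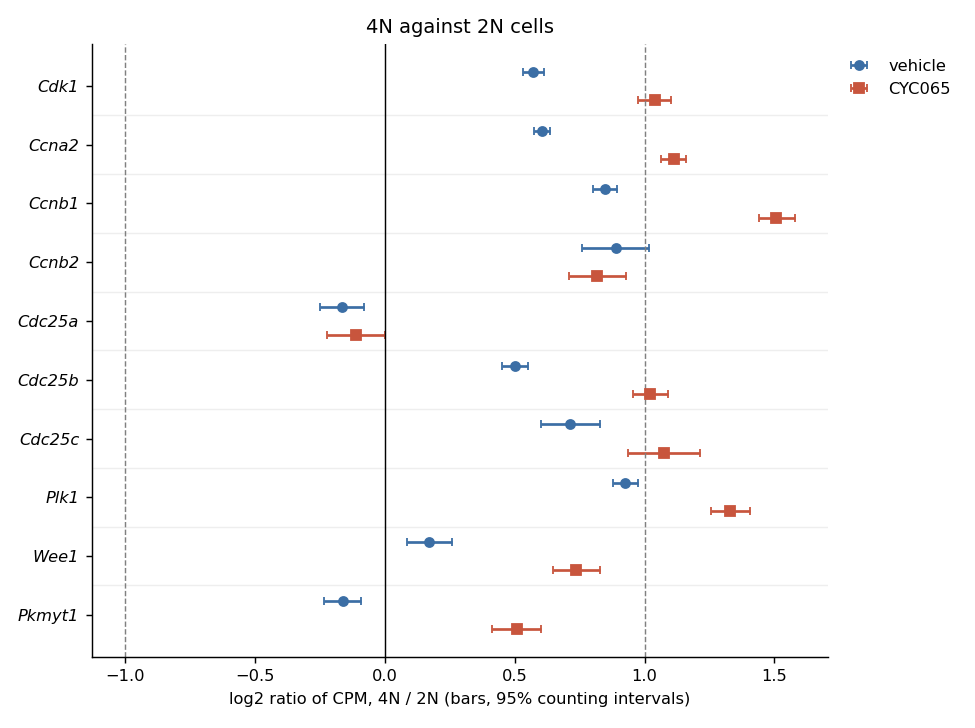
Log2 ratio of CPM in 4N over 2N cells (horizontal axis) for the 10 genes in vehicle-treated (blue circles) and CYC065-treated cells (red squares), with 95% counting intervals; dashed lines mark the fold threshold. The red squares of 8 genes lie to the right of the blue circles, by 0.36 to 0.67, and those of *Ccnb2* and *Cdc25a* do not differ from them beyond counting error.

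The level in each unsorted library was set against the levels in the sorted libraries of the same treatment. For vehicle-treated cells 6 members lay between, *Cdk1*, *Cdc25a* and *Pkmyt1* lay below both sorted libraries and *Ccnb2* above both. Of those between, *Cdc25c* and *Wee1* were within counting error of the 4N library. For CYC065-treated cells *Ccnb1*, *Cdc25b*, *Cdc25c* and *Plk1* lay between and the other 6 below both. *Cdk1* and *Wee1*, of those below both, and *Cdc25c*, of those between, were within counting error of the 2N library. Over 14754 genes only 15.3% lay between in vehicle and 18.4% in CYC065, and 43.3% and 43.4% lay below both, against 3 and 6 of the 10 members. All 16 S phase genes examined, among them *Mcm2* and *Pcna*, were below both sorted libraries in both treatments. *Cdk1*, *Cdc25a* and *Pkmyt1* were the members that were below both in each treatment.

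Other genes of the pathway were examined as lists. Of the CDK1 partners and activating kinase subunits, 5 of 7 were testable, none was called in sorted cells, and *Cks1b* and *Cks2*, small CDK-binding proteins, were lower in unsorted cells at -1.37 and -1.52. In the Greatwall pathway, which holds back the phosphatase PP2A-B55 so that CDK1 substrates stay phosphorylated, 6 genes were testable. *Mastl*, the Greatwall kinase itself, was called lower in 2N (-1.62) and unsorted cells (-1.67) and higher in 4N than in 2N cells with CYC065 (1.05), and no other was called. *Aurka* and its cofactor *Bora*, which activate PLK1, were both called lower in 2N (-1.20 and -1.36) and unsorted cells (-1.54 and -1.47), neither in 4N cells. *Aurka* was 1.27 higher in 4N than in 2N cells with CYC065. *Mastl*, *Aurka* and *Bora* were thus called where *Ccnb1* was in the 3 comparisons with vehicle.

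Among 7 genes of checkpoint control over CDC25 and WEE1, *Gadd45a*, a stress-induced inhibitor of CDK1-cyclin B, was at 13.3, 3.63 and 3.92 CPM in vehicle unsorted, 2N and 4N and at 39.7, 28.6 and 24.5 CPM with CYC065. Each treated library was above each vehicle library, with log2 ratios of 2.97 (2.77 to 3.19) in 2N, 2.64 (2.44 to 2.85) in 4N and 1.57 (1.45 to 1.69) in unsorted cells, which were called. Its paralog *Gadd45b* was called higher in 2N cells alone, at 1.88, and was lower in 4N than in 2N cells with CYC065 at -1.68, a step that differed from that in vehicle by -1.73. The checkpoint kinase *Chek1* was called lower in 2N (-1.06) and unsorted cells (-1.20) and the CDK inhibitor *Cdkn1a* (p21) in unsorted cells (-1.23). Calls in the list went in both directions, and its medians of 0.10, 0.15 and 0.03 were near 0.

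Of 4 genes that govern cyclin destruction, 3 were called lower in 2N and in unsorted cells: *Cdc20*, an activator of the anaphase-promoting complex, at -1.18 and -1.91, *Fbxo5*, an inhibitor of that complex, at -1.92 and -2.10, and *Ccnf*, an F-box protein, at -1.43 and -1.65. *Fbxo5* was also called in 4N cells, at -1.37. Of all genes tested, 13.3%, 13.9% and 11.4% were called lower in 2N, unsorted and 4N cells. Between 4N and 2N cells with CYC065 *Ccnf* and *Cdc20* were called higher at 1.20 and 1.15, and the median of the 4 genes was 1.00 against 0.02 for all genes tested. Among 9 genes that regulate transcription of mitotic genes, *Foxm1* was called lower in 2N, 4N and unsorted cells at -1.99, -1.51 and -1.92. *Mybl2* was called lower at -2.36, -1.81 and -2.30. In 2N and 4N cells both lay below the lowest of the 10 members, -1.56 and -1.14. *Nfyc* was called in 4N and unsorted cells at -1.02 and -1.03. The other 6, among them the MuvB subunits *Lin9*, *Lin37*, *Lin52* and *Lin54*, were not called.

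The 19 other mitotic genes gave the nearest comparison. In 2N cells 17 were called lower with CYC065 with a median of -1.54, in 4N cells 8 with a median of -0.77 and in unsorted cells all 19 with a median of -1.62. Of all genes tested, 13.3%, 11.4% and 13.9% were called lower in 2N, 4N and unsorted cells. The lowest value in each was that of *Ube2c*, a ubiquitin-conjugating enzyme of the anaphase-promoting complex, at -2.41, -1.85 and -2.23. From 2N to 4N cells all 19 had values above 0 under both treatments, with a median of 0.65 in vehicle and 1.24 in CYC065. With CYC065 16 were called, with the highest value for *Nusap1* at 1.76, and none with vehicle. Of all genes tested, 1.58% were called higher with CYC065 and 1% with vehicle. Set against the range of this list, *Ccnb2* and *Wee1* lay above it in both sorted comparisons with vehicle, where it ran from -2.41 to -0.65 in 2N and from -1.85 to -0.15 in 4N cells, and the other 8 members lay inside it. In unsorted cells the list ran from -2.23 to -1.25, and *Wee1* at -0.61, *Cdc25a* at -0.77, *Ccnb2* at -0.97, *Pkmyt1* at -1.12 and *Cdc25b* at -1.19 lay above it, with the other 5 members inside. Between 4N and 2N cells *Cdc25a*, *Wee1* and *Pkmyt1* lay below it under both treatments, where it ran from 0.26 to 0.90 in vehicle and from 0.92 to 1.76 in CYC065. *Ccnb2* lay below it with CYC065 as well, and *Plk1* lay just above it with vehicle. Of the 16 S phase genes 13, 12 and 14 were called lower with CYC065 in 2N, 4N and unsorted cells, with medians of -1.57, -1.22 and -1.84. The shares of all genes called lower were again 13.3%, 11.4% and 13.9%. *Rrm2* and *Tyms*, enzymes of nucleotide synthesis, were among them in each, and the licensing factor *Cdt1*, at 0.07 in 4N cells, was the 1 value above 0. Their median step from 2N to 4N was -0.17 in vehicle and 0.12 in CYC065 and none was called. *Cdc25a* and *Pkmyt1* shared the negative sign of that step in vehicle with 14 of the 16.

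Genes with the most similar profile over the 6 libraries were sought among 6450 genes with at least 1000 counts in every library, by the root mean square difference of log2 levels centered on each gene's mean. The 5 nearest to *Cdk1* were the chromokinesin *Kif4* at 0.07, the importin *Kpna2* at 0.09, the condensin subunit *Smc2* at 0.12, *Gm10184* at 0.13 and the formin *Diaph3* at 0.13. The nearest to *Ccna2* was the checkpoint kinase *Bub1* at 0.05, to *Ccnb1* the kinesin *Kif2c* at 0.06, to *Cdc25b* *Arhgap11a* at 0.10, to *Cdc25c* *Cip2a* at 0.09 and to *Plk1* the kinesin *Kif23* at 0.11. For *Ccnb2* it was securin, *Pttg1*, at 0.10. For *Cdc25a* the nearest was *Atic*, an enzyme of purine synthesis, at 0.04, for *Wee1* the polymerase *Polh* at 0.06 and for *Pkmyt1* *Xpo4* at 0.08, with *Mcm7*, a subunit of the replicative helicase, also near at 0.09. Among the members, *Ccnb1* and *Plk1* were closest at 0.12 and *Ccnb2* and *Plk1* farthest apart at 0.75. These distances rest on 6 libraries.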

How the data were processed

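The expected counts per gene were deposited by the authors, who quantified reads of a stranded total RNA library with RSEM after trimming with Cutadapt 1.18 and alignment to mm10 with STAR 2.7.0f and the GENCODE M21 annotation. The submitters' processing notes name bcl2fastq 2.17 and RSEM 1.3.1, whereas the study's methods name 2.20 and 1.3.3. Expected counts can be fractional because RSEM divides reads shared between genes, and whether counting used strand is not given in the sources used here.

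The 18 columns were summed to 6 libraries, since the 3 columns of a condition were parts of 1 library. CPM were computed with TMM factors over all 6 libraries (edgeR 4.0.16, R 4.3.3), which were 0.941 to 1.08. Log2 ratios used a prior count of 0.5 and exact 95% Clopper-Pearson counting intervals, and differences of 4N/2N ratios a normal approximation. With 1 library for each condition there was no test. Genes with at least 30 counts in a library compared were tested against a log2 fold of 1. Fits of edgeR and DESeq2 1.42.0 to the 3 columns, which compare libraries rather than conditions, used expected counts rounded to whole numbers and were alternatives. On simulated counts for the 2N comparison over 13716 genes, 200 of 200 changed genes were recovered and 9 unchanged genes were called. These counts held sampling noise alone, and the changes were planted well past the fold in genes with ample counts. Recovery was therefore set in advance, and the simulation cannot speak to variation between cultures. The same-numbered columns of different conditions had correlated deviations of -0.57 to 0.40 over 10267 genes, so the numbers were not taken to pair samples. Sequences came from the RefSeq table, and coordinates of genes from GENCODE M21. The naming rule took all 10 members, of each other list the genes past the fold, at most 5 in a comparison and those of largest log2 ratio first, and the nearest genes by profile. Of the mitotic and S phase lists fewer were named, and some shorter lists together gave more than 5. Members and lists were chosen with earlier results of these data known.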

Additional observations from a re-analysis of the deposited data

Results flagged for a closer look

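*Wee1* had opposite signs in the comparison of CYC065 with vehicle, at -0.46 on the log2 scale in 2N cells and 0.11 in 4N cells, and again between 4N cells at 0.11 and unsorted cells at -0.61. *Ccnb2* had opposite signs between sorted and unsorted cells, at 0.35 in 2N and 0.28 in 4N cells against -0.97 in unsorted cells. *Pkmyt1* was lower in 4N than in 2N cells after vehicle, at -0.16, and higher after CYC065, at 0.51. Each pair was noted because the single library of one group moved up and that of the other moved down, and none of these differences was tested against variation between cultures. The unsorted vehicle library was the one in which *Ccnb2* stood above both sorted libraries of its treatment.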

How the results depend on the processing

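Of 600 member values recomputed under the alternatives, 600 kept their direction, 588 stayed on the same side of the fold and 521 stayed within the counting interval. The alternatives rescaled, refitted or left out parts of the same 6 libraries, so this agreement does not bear on variation between cultures. In 4N cells the 3 members called with CYC065 became 1 with library size scaling only, where *Cdk1* was at -0.95 and *Ccna2* at -0.87, and 1 with an assumed coefficient of variation of 0.2. Between 4N and 2N cells with CYC065, the 6 members called became 3 when the whole interval had to lie beyond the fold and 0 with the assumed coefficient of variation. *Cdc25b* in 2N cells was at -0.99 with library size scaling. *Ccnb2* in unsorted cells passed the fold at -1.02 with library size scaling. *Cdc25b* between 4N and 2N cells with CYC065 was at 0.99 in the DESeq2 fit. *Ccna2* in 4N cells was also under the fold in that fit, at -0.97, and at -0.94 in the edgeR fits with and without the replicate block. Leaving out 1 column of each library gave 6 members in 2N cells, 2 to 3 in 4N cells and 7 to 8 in unsorted cells, and 0 in vehicle and 5 to 6 in CYC065 between 4N and 2N cells. Without column 1 *Ccna2* in 4N cells lost its call at -0.99 and *Ccnb2* in unsorted cells gained one at -1.002, and without column 2 *Cdk1* between 4N and 2N cells with CYC065 lost its call at 0.997.

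The replicate numbers did not pair the samples, since not every correlation of same-numbered columns was over 0.1. With the replicate number as a block, edgeR called 6, 2 and 7 members lower in 2N, 4N and unsorted cells and 6 members higher in 4N than in 2N cells with CYC065, the same counts as without the block. The number of all genes called between 4N and 2N cells in vehicle ranged widely, from 22 with the assumed coefficient of variation to 5347 with no filter on low counts, against 357. Depth limits little for the members, whose lowest summed count in a library was 591, and differences between cultures were not measured, since a condition is 1 library of 1 cell line.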
